A study of Mus musculus with 40 samples.

Results

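Imprinted genes are genes that are transcribed mainly from the copy inherited from only the mother or only the father. A list of 32 of them was followed through a series of arrays on mouse melanoma. Each was represented by the probe set that is assigned to that gene alone and has the highest mean over 40 arrays, and 26 of the 32 had such a probe set among the 17097 named genes of the series. H19, Peg10, Nnat and Zrsr1 had no probe set of that kind, and the probe sets of Igf2r and Mest were shared with Airn and Copg2, so these 6 are not analysed here.

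The parental mark is DNA methylation laid down in the germ line at imprinting control regions, and maintenance DNA methyltransferase together with zinc finger proteins such as ZFP57 keeps it in dividing cells. Loss of methylation can switch on a silent copy or, where a control region drives a noncoding RNA that silences its neighbours, switch genes off. Many imprinted genes act on fetal growth and are down-regulated after birth, and some are known to lose their parental pattern in tumours. Arrays of this type measure the summed RNA of both copies, so allele use was not measured.

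B16F10, a mouse melanoma line, was profiled in culture without treatment (4 arrays) and with OTX015 (4 arrays), which blocks the bromodomains through which BET proteins hold on to acetylated histones. The same line was injected under the skin of C57black6J mice 8 weeks of age, and tumours were profiled in 2 experiments with controls of their own. In the first, OTX015 was given by mouth (11 control and 10 treated tumours), and in the other guadecitabine, a DNA methylation inhibitor, was injected into the abdomen (5 control and 6 treated tumours). Doses, treatment times, sex, vehicle and the origin of replicates (separate cultures or animals) are not given in the labels, so p-values measure only the spread between these samples. The tumour labels read melanocyte cells and mention no sorting.

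Values are log2 intensities after RMA, which subtracts background, evens out the arrays and summarises the probes of each set. Background was set at 4.46, the 95th percentile of the means of 83 probe sets for smell and pheromone receptors, genes silent in most tissues. The 7 measured melanocyte markers lay above it in all 6 groups. The 6 measured macrophage markers had a summed level of 6.27 to 6.45 in cultures, 8.93 to 10.82 in control tumours and 6.99 to 9.60 in treated tumours. In such bulk samples, fewer cells of a type and less RNA per cell cannot be told apart. The 10 arrays of OTX015-treated tumours had deposited array means of 4.35 to 4.39 against 4.55 to 4.64 on the other 30, so wherever drug effects were compared with each other, and in the OTX015 tumour comparison itself, the arrays were brought to the same distribution first (quantile normalization). In the comparison of OTX015 with control tumours this moved the median difference over all genes from -0.21 to 0.01 on the log2 scale, and changes in that comparison are relative to the new scale. Tests are limma fits with Benjamini-Hochberg adjustment over the 17097 genes, and genes with an adjusted p under 0.05 count as called.

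Averaged over the 40 arrays, 10 of the 26 imprinted genes lay above background, as did 9123 of all 17097 genes. The 10 were Plagl1, Cd81, Sgce, Snrpn, Ube3a, Tssc4, Impact, Slc22a18, Meg3 and Kcnq1ot1. All of these except Kcnq1ot1 lay above it in each of the 6 groups. The fetal growth factor Igf2 had group means between 3.73 and 4.1, and Dlk1, a NOTCH-related growth regulator of the fetus, between 3.81 and 4.11, all below background. On every array Cdkn1c, Phlda2, Ascl2, Ndn, Magel2, Mkrn3, Peg12, Zim1, Nap1l5, Rasgrf1 and Gnas were below background. For Gnas, which encodes the stimulatory G protein subunit and has many transcript forms, this refers to the 1 probe set of its own and not to the gene as a whole.

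**Figure D1:**
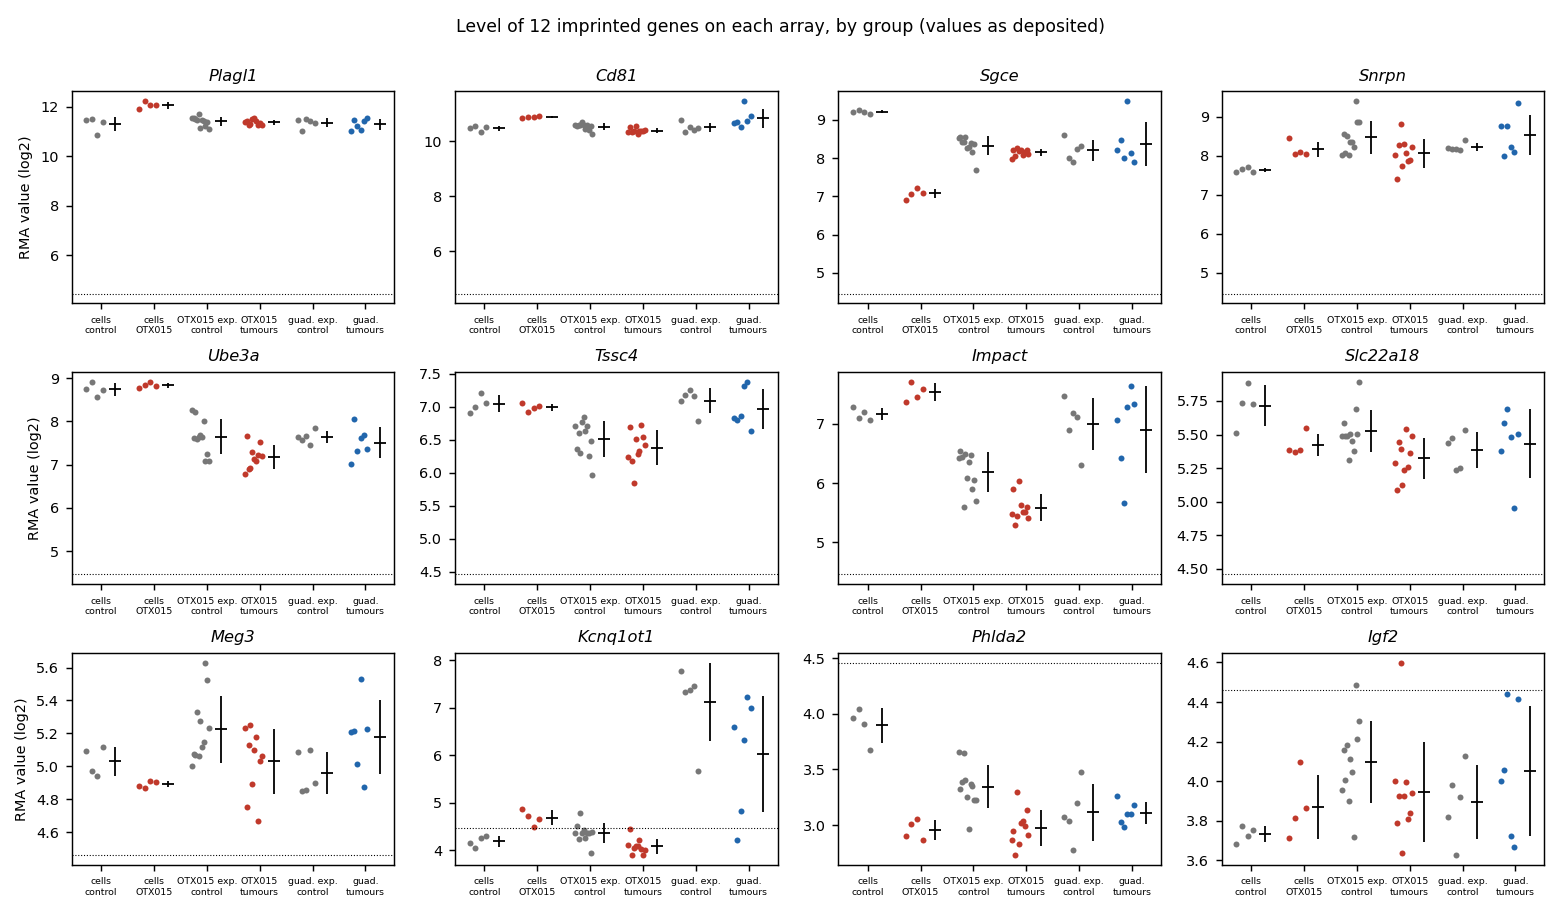
RMA log2 value as deposited (vertical axis) of 12 imprinted genes on each array, in the 6 groups (horizontal axis; exp. = experiment, guad. = guadecitabine). Points are arrays, the black mark and bar beside them are the group mean and SD, and the dotted line is the background level of 4.46. Sgce falls in cultures with OTX015 and not in tumours, and Kcnq1ot1 lies between 5.68 and 7.77 in the control tumours of the guadecitabine experiment against 3.93 to 4.79 in those of the OTX015 experiment.

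Start-site windows give the sequence context of members whose level moved in culture. RefSeq (GRCm38.p6) windows of 300 bases, from 250 before to 50 after a transcript start, were found for 27 of the 32 listed genes, 40 windows in all. H19, Cdkn1c, Peg10, Sgce and Impact had no entry. Shown are Plagl1, whose product is a zinc finger transcription factor that restrains growth, at chr10:13090582-13090881 (plus strand), and 3 genes of a single imprinted domain on chromosome 7. These are the noncoding RNA Kcnq1ot1 (chr7:143296498-143296797, minus strand), the organic cation transporter gene Slc22a18 (chr7:143473539-143473838, plus strand) and the placental growth restrainer Phlda2 (chr7:143502475-143502774, minus strand). Capitals mark CG pairs, the site of DNA methylation, and sequences run 5′ to 3′ on the gene's strand:
Plagl1: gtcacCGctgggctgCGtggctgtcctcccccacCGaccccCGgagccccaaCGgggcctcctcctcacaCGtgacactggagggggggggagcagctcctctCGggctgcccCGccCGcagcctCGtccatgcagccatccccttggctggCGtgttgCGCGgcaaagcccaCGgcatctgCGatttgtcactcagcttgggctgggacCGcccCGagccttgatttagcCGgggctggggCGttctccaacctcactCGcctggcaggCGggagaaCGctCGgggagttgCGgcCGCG
Kcnq1ot1: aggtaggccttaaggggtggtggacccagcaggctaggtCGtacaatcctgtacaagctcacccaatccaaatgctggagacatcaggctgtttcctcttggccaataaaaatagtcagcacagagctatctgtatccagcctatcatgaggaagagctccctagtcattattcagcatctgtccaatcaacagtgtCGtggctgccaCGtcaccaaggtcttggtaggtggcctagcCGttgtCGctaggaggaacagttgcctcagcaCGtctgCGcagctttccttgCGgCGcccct
Slc22a18: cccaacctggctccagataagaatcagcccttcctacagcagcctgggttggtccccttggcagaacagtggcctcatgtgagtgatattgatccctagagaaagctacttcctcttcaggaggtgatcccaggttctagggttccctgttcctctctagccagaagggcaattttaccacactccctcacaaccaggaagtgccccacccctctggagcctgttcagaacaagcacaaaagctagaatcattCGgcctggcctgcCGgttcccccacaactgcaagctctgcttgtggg
Phlda2: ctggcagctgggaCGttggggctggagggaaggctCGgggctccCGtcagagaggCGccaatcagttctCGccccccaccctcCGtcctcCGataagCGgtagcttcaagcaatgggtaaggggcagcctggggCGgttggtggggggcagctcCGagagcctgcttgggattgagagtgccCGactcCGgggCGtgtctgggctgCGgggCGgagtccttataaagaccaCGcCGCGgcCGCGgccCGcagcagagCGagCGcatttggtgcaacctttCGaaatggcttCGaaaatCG
The windows hold 26 CG pairs (Plagl1), 9 (Kcnq1ot1), 2 (Slc22a18) and 26 (Phlda2). Over the 40 windows the median was 15.5 pairs, against 7 over the 32851 windows of all genes. TGCCGC, the core letters recognised by ZFP57, searched on both strands, occurred in 10 of the 40 windows (25%), among them that of Plagl1 and none of the other 3 shown, and in 11.6% of all windows. TGCCGC itself holds a CG pair, so these shares compare windows of unlike CG content. Windows of a gene may overlap, as do those of Mest starting at 30737800 and 30737803 of chromosome 6, which both hold a match. A match is a description of letters, not of binding.

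Guadecitabine removes the type of mark that imprinting depends on, and its tumours were compared with their own controls first. None of the 26 imprinted genes passed the test, and none of the 17097 genes did (0% called). At an unadjusted p under 0.05, 0 of the 26 passed in limma's test, while 1013 of all genes did (5.93%). The difference was above 0 for 19 of the 26, with a median of 0.06 on the log2 scale against 0.04 over all genes. Treated and control values overlapped for each of the 26 (0.649% of all genes had groups that did not overlap). The 4 members with the smallest p are given as values.

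Cd81, which encodes a tetraspanin of the cell surface, measured 10.78, 10.33, 10.50, 10.42 and 10.48 in the 5 control tumours and 10.53 to 11.46 (median 10.70) in the 6 treated. The difference was 0.32 ± 0.15 (SE; limma p = 0.0577, adjusted p = 0.828). Treated replicate 4 was the highest and the remaining treated tumours lay at or below 10.90, so the groups overlapped.

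Meg3, the maternally expressed noncoding RNA of the Dlk1 domain, measured 5.09, 4.85, 4.85, 5.10 and 4.90 in controls and 4.87 to 5.53 (median 5.21) in treated tumours, a difference of 0.22 ± 0.11 (SE; limma p = 0.0761, adjusted p = 0.828). Its highest value was again treated replicate 4. Across the settings tried, including the omission of each array in turn, the Meg3 difference ranged from 0.07 to 0.28. Peg3, a paternally expressed zinc finger gene, measured 3.87, 3.76, 3.85, 3.84 and 3.98 in controls and 3.77 to 4.31 (median 4.03) in treated tumours, below background in both groups, with a difference of 0.15 ± 0.095 (SE; limma p = 0.13, adjusted p = 0.84).

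Kcnq1ot1, the paternally expressed RNA that silences neighbouring genes in cis and starts within a maternally methylated control region, had the largest difference of the 26. Controls measured 7.77, 7.34, 7.37, 7.45 and 5.68, and treated tumours 6.60, 4.22, 4.83, 6.31, 7.21 and 6.98. Control replicate 5 lay among the treated tumours, and treated replicates 2 and 3 were lower than all controls. The difference of -1.10 ± 0.57 (SE; 95% interval -2.33 to 0.14) did not pass in limma (p = 0.0774, adjusted p = 0.828). Across the settings tried, including the omission of each array in turn, it ranged from -0.70 to -1.46. Of the 6 probe sets of Kcnq1ot1, the other 2 with a raised signal in this experiment gave -1.56 and -1.37, and the remaining 3 gave -0.12, -0.08 and 0.06.

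The same arrays were low in other RNAs. Malat1 and Neat1, abundant noncoding RNAs retained in the nucleus and added to the genes followed after the values of Kcnq1ot1 were seen, were compared on these arrays. Malat1 measured 7.55, 6.81, 7.63, 7.27 and 5.99 in controls and 6.33, 5.11, 6.05, 7.07, 7.26 and 8.28 in treated tumours. Neat1 measured 9.96, 9.63, 9.65, 10.25 and 8.35 in controls and 10.12, 6.56, 7.08, 9.71, 7.95 and 9.79 in treated tumours. The 3 arrays lowest in Kcnq1ot1 (treated replicates 2 and 3 and control replicate 5) were also the 3 lowest in Malat1 and in the imprinted gene Impact, which measured 6.42, 5.66 and 6.31 on them against 6.90 to 7.64 on the other 8. Their part in the Kcnq1ot1 values was not tested.

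**Figure D2:**
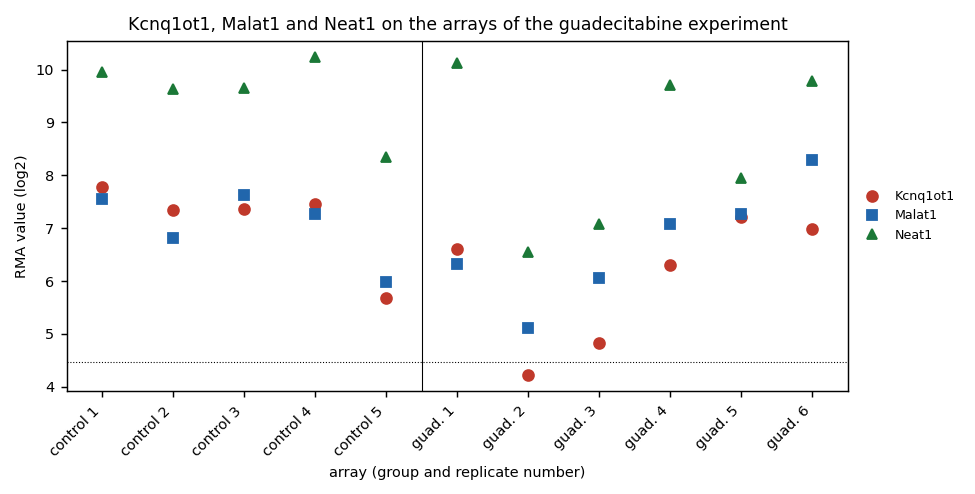
RMA log2 value (vertical axis) of Kcnq1ot1, Malat1 and Neat1 on the 5 control and 6 guadecitabine-treated (guad.) tumour arrays, in order of replicate number; the dotted line is the background level of 4.46. Kcnq1ot1 is lowest on treated replicates 2 and 3 and, among controls, on replicate 5, where Malat1 and Neat1 are also lower than on most arrays.

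Treated replicate 4 stood apart in several members. Its Sgce value of 9.49 lay above the 7.90 to 8.47 of the other 5 treated tumours, and its Cd81 value of 11.46 above their 10.53 to 10.90. The summed level of the 7 fibroblast markers was 8.49 on that array and 6.27 to 6.66 on the other 5, with Col3a1 at 8.09. The part of this in its Sgce, Cd81 and Meg3 values was not tested.

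Of the 31 measured genes on a second list of imprinted genes, 0 passed in limma for guadecitabine, with Pde10a nearest (0.29 ± 0.08, SE; adjusted p = 0.645), and 1 did so at an unadjusted p under 0.05. None of the 19 measured genes that set or keep the imprint passed. Dnmt3b, a de novo DNA methyltransferase, differed by -0.48 ± 0.18 (SE; adjusted p = 0.782), and Trim28, the corepressor recruited by ZFP57, by -0.28 ± 0.11 (SE; adjusted p = 0.791). Among 14 measured genes of insulin-like growth factor signalling 0 passed, and Igfbp2 had a difference of 0.25 ± 0.08 (SE; adjusted p = 0.707).

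In OTX015-treated tumours 3 of the 26 imprinted genes changed (11.5%) against 16.2% of all genes in the limma fit, 1 higher (8.67% of all genes) and 2 lower (7.49%). The median difference over the 26 was 0.00 on the log2 scale, as it was over all genes to within 0.01. On the values as deposited, which carry the lower array means of the treated tumours, 19 passed, 1 higher and 18 lower, beside 215 genes higher and 9230 lower in all. Of the 10 members above background 1 passed, against 12.2% of such genes. The groups overlapped for all 26 (1.37% of all genes had groups that did not). With each array centred on its median, 1 member passed, Rasgrf1, which was higher.

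Impact, a paternally expressed gene whose product inhibits the stress kinase GCN2, had the clearest change among members above background. After quantile normalization it measured 5.54 to 6.46 (median 6.13) in the 11 controls and 5.46 to 6.04 (median 5.69) in the 10 treated tumours. All 10 treated tumours lay below the control median, although the groups overlapped. Impact fell by 0.37 ± 0.087 on the log2 scale (SE; limma adjusted p = 0.00502). With arrays centred on their medians the difference was -0.36 (adjusted p = 0.0766), and with all 6 groups in 1 fit it was -0.38 (adjusted p = 0.0697), so neither passed. Macrophage markers moved with treatment in these tumours: 5 of 6 were lower after quantile normalization (median difference -1.16). On values as deposited their summed level was 9.07 to 10.82 in controls and 6.99 to 9.34 in treated tumours. Their part in the value of Impact was not tested.

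Rasgrf1, a paternally expressed exchange factor for RAS, measured 3.39 to 3.96 (median 3.69) in controls and 3.96 to 4.23 (median 4.14) in treated tumours, with overlap at the edge of the ranges. It was higher by 0.43 ± 0.055 (SE; limma adjusted p = 9.28e-06), yet every value is below background and its other 2 probe sets differed by -0.01 and 0.09. Nap1l5, an intronless paternally expressed gene of nucleosome assembly protein ancestry, measured 2.89 to 3.18 (median 3.0) in controls and 2.74 to 3.03 (median 2.85) in treated tumours. It was lower by a difference of -0.16 ± 0.046 (SE; limma adjusted p = 0.0237), also entirely below background.

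The other 23 members did not pass. Ube3a, the ubiquitin ligase gene of the Angelman region, differed by -0.25 ± 0.098 (SE; limma adjusted p = 0.0926), with 7.20 to 7.98 in controls and 6.98 to 7.60 in treated tumours. Sgce, which encodes the epsilon-sarcoglycan of the cell membrane, differed by 0.05 ± 0.062 (95% interval -0.08 to 0.18), Plagl1 by 0.06 ± 0.064, Kcnq1ot1 by -0.03 ± 0.083 and Cd81 by 0.02 ± 0.040 (SE). Slc22a18 differed by 0.03 ± 0.099 at its brighter probe set, while its other probe set, below background on average over the 40 arrays (3.42), gave -0.44 ± 0.052 (SE), so its probe sets disagreed.

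Of the second list of imprinted genes, 7 of 31 passed in limma for these tumours (22.6%, against 16.2% of all genes), 5 higher and 2 lower. Airn, the noncoding RNA antisense to Igf2r, differed by -0.51 (adjusted p = 3.37e-05) and Rian, of the Meg3 domain, by 0.36 (adjusted p = 0.00244), while Th, tyrosine hydroxylase, differed by 0.29 and the insulin gene Ins2 by -0.28. Of 19 imprint maintenance genes, 1 was higher and 2 were lower (15.8%): Tet3, a methylcytosine oxidase, differed by -0.66 (adjusted p = 0.000128), Dnmt3b by -0.46 (adjusted p = 0.00158) and Dnmt3l by 0.33. Of 14 growth factor signalling genes 4 passed (28.6%): the IGF binding protein protease gene Pappa (0.61) and Igfbp2 (0.23) were higher, and Igf1 (-0.75) and Stc2 (-0.30) lower.

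In cultured cells OTX015 changed 8 of the 26 imprinted genes (30.8%), against 38.8% of all genes in the limma fit. It raised 5 (17.0% of all genes were higher) and lowered 3 (21.8% lower). The median difference over the 26 was 0.01 on the log2 scale and 0.00 over all genes. Of the 10 members above background, 7 passed, and 61.0% of all genes above background did.

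Sgce showed the largest change of any member in any of the drug comparisons. Control cultures measured 9.21, 9.25, 9.21 and 9.16, and treated cultures 6.92, 7.06, 7.23 and 7.10. The groups were far apart, with no overlap. Groups did not overlap for 8 of the 26 members, among them Meg3, which did not pass, and for 37.8% of all genes. Sgce fell by 2.13 ± 0.077 on the log2 scale, a 4.38-fold reduction (SE; limma adjusted p = 1.23e-09). A reduction of over 2-fold was called for 5.26% of all genes. The second probe set of Sgce, below background (mean 3.75), differed by -0.06.

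Phlda2 measured 3.96, 4.04, 3.91 and 3.68 in control cultures, and 2.90, 3.01, 3.06 and 2.86 in treated ones. There was no overlap, and Phlda2 fell by 0.94 ± 0.088 on the log2 scale (SE; limma adjusted p = 3.04e-06), with every value below background. Slc22a18 measured 5.51, 5.73, 5.89 and 5.73 in control cultures, and 5.39, 5.37, 5.38 and 5.55 in treated ones. Treated replicate 4 overlapped with control replicate 1. Slc22a18 fell by 0.29 ± 0.086 on the log2 scale (SE; limma adjusted p = 0.0169). After quantile normalization the difference was -0.22 (adjusted p = 0.0851), and its dimmer probe set gave -0.51.

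Plagl1 rose the most. Controls measured 11.46, 11.50, 10.88 and 11.40, and treated cultures 11.90, 12.24, 12.06 and 12.08, with no overlap. The rise was 0.76 ± 0.13 on the log2 scale, or 1.69-fold (SE; limma adjusted p = 0.000439), and its other probe set gave 1.44.

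Snrpn, a splicing protein gene of the Prader-Willi region, measured 7.57, 7.67, 7.70 and 7.59 in controls and 8.45, 8.05, 8.10 and 8.05 with OTX015, without overlap. It rose by 0.53 ± 0.094 (SE; limma adjusted p = 0.000574). A second probe set gave 0.50, and the remaining one, below background (mean 3.25), -0.03. Cd81 measured 10.48, 10.55, 10.32 and 10.50 in control cultures, and 10.83, 10.86, 10.89 and 10.91 in treated ones. The latter were all higher, by 0.41 ± 0.071 on average (SE; limma adjusted p = 0.000432).

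Impact measured 7.28, 7.10, 7.21 and 7.07 in controls and 7.36, 7.71, 7.46 and 7.59 with OTX015. Every treated culture lay above every control, and Impact rose by 0.37 ± 0.088 (SE; limma adjusted p = 0.0049). Kcnq1ot1 measured 4.15, 4.04, 4.25 and 4.30 in controls, below background, and 4.86, 4.72, 4.48 and 4.65 with OTX015, just above it. It rose by 0.49 ± 0.092 (SE; limma adjusted p = 0.000893). Malat1 and Neat1 were also higher in these cultures, by 2.30 (limma adjusted p = 1.76e-07) and 1.23 (adjusted p = 6.65e-06), and the relation of Kcnq1ot1 to them was not tested.

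The calls lay in more than 1 parental class and in more than 1 domain. The counts are small and no pattern by class or domain was tested. Of 15 measured members described as paternally expressed, 4 rose and 1 fell, and of 8 described as maternally expressed, 1 rose and 2 fell. Among all genes 17.0% were higher and 21.8% lower. In the Kcnq1ot1 domain the RNA and the imprinted protein-coding genes are described as transcribed from opposite parental copies, which was not measured here. Of this domain 7 members were measured. Kcnq1ot1 and Cd81 rose, Phlda2 and Slc22a18 fell, and Tssc4 (-0.05), Cdkn1c (-0.12) and Ascl2 (-0.08) did not pass. In the Prader-Willi and Angelman region Snrpn rose, and the other 5 measured members, Ndn, Magel2, Mkrn3, Peg12 and Ube3a, differed by -0.05 to 0.09 without passing; 2 dimmer probe sets of Ube3a gave 0.50 and 0.31. Igf2 differed by 0.14 (95% interval -0.05 to 0.32), Dlk1 by 0.03 and Meg3 by -0.14 (limma adjusted p = 0.14).

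**Figure D3:**
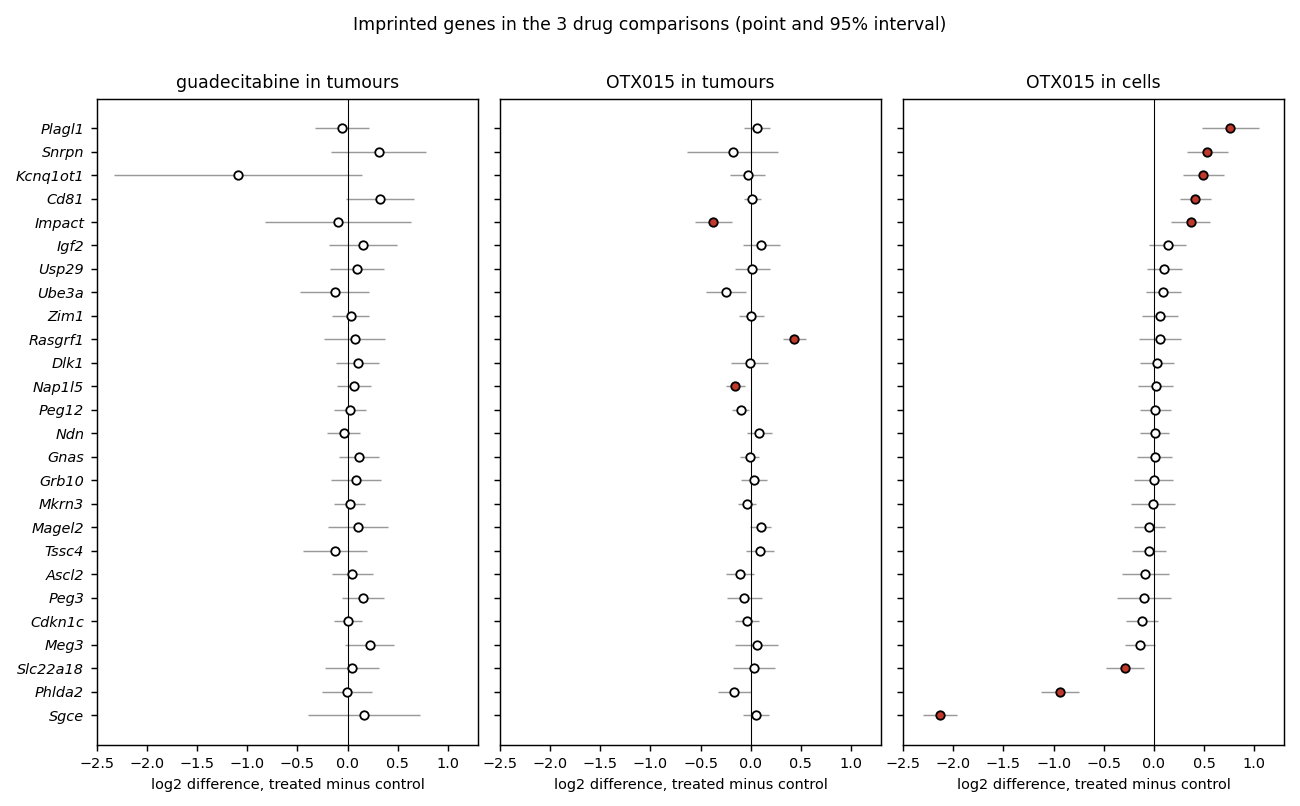
Log2 difference, treated minus control (horizontal axis), of the 26 measured imprinted genes (rows) for guadecitabine in tumours, OTX015 in tumours and OTX015 in cells. Points are differences, lines 95% intervals, and filled points passed at an adjusted p under 0.05 in limma. No point is filled for guadecitabine, 3 are filled for OTX015 in tumours and 8 for OTX015 in cells.

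The fall of Sgce in culture was set beside its chromosomal neighbours. Taking the 10 measured genes on either side, a window chosen after the values were seen and given with no test, 11 of 20 neighbours were lower in cells at an adjusted p under 0.05 in limma and 1 was higher, with a median difference of -0.35. Over all genes 21.8% were lower, 17.0% higher and 5.26% lower by over 2-fold. Of the 20, 8 were lower by over 2-fold: Dync1i1 (-3.94), Samd9l (-2.81), Gng11 (-2.72), Ppp1r9a (-2.27), Dlx6 (-1.93), Bet1 (-1.49), Dlx6os1 (-1.38) and Pon2 (-1.0). Ppp1r9a, Casd1 (-0.55) and Pon2 are also counted among the imprinted genes of the second list. Calcr, Tfpi2, Pon1 and Pon3 lie in the same stretch and did not pass, at -0.05, 0.04, 0.15 and -0.02. Averaged over the 40 arrays they lay below background (2.73, 2.87, 3.44 and 4.23), where a fall could be missed. Among the genes that fell, so did Dync1i1 (4.28), Dlx6os1 (4.14) and Dlx6 (3.81). Vps50 (0.03) and Slc25a13 (-0.15) also did not pass, and their means of 8.60 and 7.51 lay above background. In OTX015-treated tumours 1 of the 20 was higher and 0 were lower, with a median of 0.03.

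**Figure D4:**
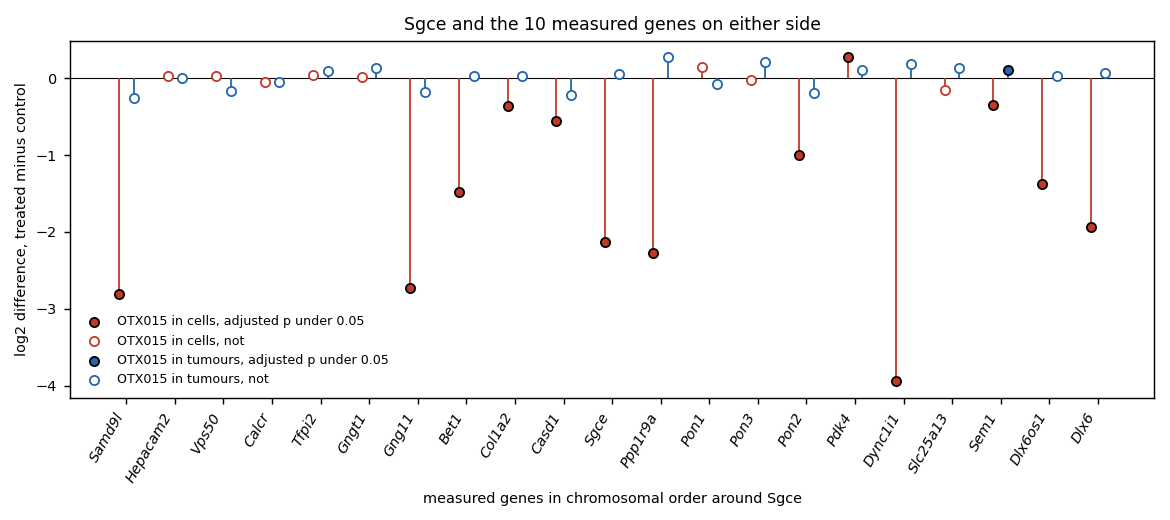
Log2 difference, treated minus control (vertical axis), of Sgce and the 10 measured genes on either side of it in chromosomal order (horizontal axis), for OTX015 in cells (red) and OTX015 in tumours (blue). Filled points passed at an adjusted p under 0.05 in limma: 12 genes including Sgce are lower in cells, and none is lower in tumours.

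The same count was made around the other 9 members above background, also with no test, and several of these windows on chromosome 7 share genes. Around Plagl1, which itself rose, 10 of 20 neighbours were lower in cells and 1 higher, with a median of -0.30. Around Meg3, 6 were higher and 2 lower (median 0.09), and around Kcnq1ot1 4 were higher and 2 lower (median 0.02). Around Snrpn 0 were higher and 2 lower, around Slc22a18 6 and 3, around Impact 3 and 5, around Tssc4 4 and 3, around Cd81 3 and 3, and around Ube3a 2 and 4. The medians of these 6 windows lay between -0.03 and 0.02.

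On the second list of imprinted genes, 9 of 31 passed in cells (29.0%, against 38.8% of all genes), 4 higher and 5 lower. The actin-binding gene Ppp1r9a (-2.27 ± 0.11, SE; limma adjusted p = 1.6e-08), the paraoxonase gene Pon2 (-1.0) and the coatomer gene Copg2 (-0.63) fell, and H13, a signal peptide peptidase gene, rose by 0.87 ± 0.08. Of 19 imprint maintenance genes, 7 were higher and 2 lower (47.4% in all). Tdg, a DNA glycosylase of demethylation, rose by 0.53, Trim28 by 0.52 and the heterochromatin protein gene Cbx5 by 0.85, while Zfp445, an imprint-protecting zinc finger gene, fell by 0.55 on the log2 scale (limma adjusted p = 0.000121). Of 14 growth factor signalling genes, 1 was higher and 5 lower (42.9%). Igf1r, the receptor that IGF2 acts through, rose by 0.58, and the binding protein gene Igfbp4 (-1.90), the adaptor gene Irs1 (-0.93) and Igfbp6 (-0.52) fell.

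The effect of OTX015 was then compared between tumours and cells in a single limma fit. The difference between the effects passed for 7 of the 26 members (26.9%), against 32.7% of all genes, with 3 higher in tumours (18.0% of all genes) and 4 lower (14.6%). Sgce differed most, by 2.30 ± 0.11 (SE; adjusted p = 3.2e-16). Phlda2 differed by 0.75 (adjusted p = 0.000122) and Rasgrf1 by 0.39 (adjusted p = 0.00499). Impact (-0.80, adjusted p = 0.000195), which rose in cells and fell in tumours, Plagl1 (-0.72, adjusted p = 0.000199), Kcnq1ot1 (-0.50, adjusted p = 0.0131) and Cd81 (-0.42, adjusted p = 7.57e-05) had lower effects in tumours. On values as deposited the split was 2 higher and 8 lower, beside 1742 genes higher and 5508 lower in all. Tumour samples hold other cells than the line itself, as the macrophage markers show, and how much of each difference comes from them was not tested.

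Between the effects of OTX015 and guadecitabine in tumours, 0 of 26 members differed in limma, against 3.54% of all genes, and 4 did so at an unadjusted p under 0.05 (18.0% of all genes). Those 4 were Rasgrf1 (0.39, adjusted p = 0.0836), Cd81 (-0.32, adjusted p = 0.189), Nap1l5 (-0.20, adjusted p = 0.192) and Kcnq1ot1 (1.02, adjusted p = 0.195). Without guadecitabine control replicate 5, Kcnq1ot1 differed by 1.37 (adjusted p = 0.0424), and without treated replicate 4, Rasgrf1 differed by 0.48 (adjusted p = 0.0153).

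Untreated samples were also compared. The share of all genes whose groups did not overlap was not counted for these comparisons. Between control tumours (the mean of both experiments) and control cells, 10 of 26 members passed in limma (38.5%), against 40.8% of all genes, with 5 higher (12.6% of all genes) and 5 lower (28.2%). Of the 10 above background 6 passed, against 56.9% of such genes. Kcnq1ot1 is among these 6, and its place among the 10 rests mainly on the arrays of the guadecitabine experiment. After quantile normalization the split was 2 higher and 6 lower, beside 2528 genes higher and 3766 lower in all. After median centring it was 2 higher and 9 lower, beside 1217 genes higher and 5987 lower.

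Ube3a measured 8.75, 8.91, 8.56 and 8.72 in control cells, 7.08 to 8.26 (median 7.63) in the 11 OTX015 experiment controls, and 7.63, 7.57, 7.66, 7.46 and 7.85 in the guadecitabine controls. All tumours lay below all cultures, by a mean difference of -1.10 ± 0.17 (SE; limma adjusted p = 2.79e-05). Its other 2 probe sets gave -0.75 and -1.34.

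Sgce was also lower in all tumours, with 7.68 to 8.55 (median 8.38) and with 8.59, 8.0, 7.90, 8.25 and 8.32 in the respective control groups against 9.16 to 9.25 in cells. The difference was -0.94 ± 0.13 (SE; limma adjusted p = 5.15e-06), and its dimmer probe set went the other way, at 0.62. Phlda2 measured 2.96 to 3.66 (median 3.35) and 3.08, 3.04, 2.78, 3.20 and 3.48 in the control tumours, against 3.68 to 4.04 in cells, a difference of -0.67 ± 0.11 (SE; limma adjusted p = 7.41e-05), all below background.

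Snrpn lay above every control culture (7.57 to 7.70) in every control tumour. It measured 8.02 to 9.40 (median 8.35) in the OTX015 experiment and 8.20, 8.16, 8.17, 8.16 and 8.40 in the guadecitabine experiment, a difference of 0.71 ± 0.18 (SE; limma adjusted p = 0.00277). Peg3 (0.33, adjusted p = 0.0408), its neighbour Usp29 (0.36, adjusted p = 0.0277) and Igf2 (0.26, adjusted p = 0.0473) were higher in tumours in the main limma fit, with group means below background throughout. Each missed the threshold after quantile normalization and after median centring. So did Impact (-0.57, adjusted p = 0.0131) and Slc22a18 (-0.26, adjusted p = 0.0228) after quantile normalization, at -0.21 and -0.04. On deposited values Impact measured 7.07 to 7.28 (median 7.15) in control cells. The OTX015 experiment controls all lay lower, at 5.60 to 6.54 (median 6.36). Those of the guadecitabine experiment overlapped the cells, at 6.31 to 7.46 (median 7.12). The difference of Impact therefore rests mainly on the OTX015 experiment. Without control culture 2 or control culture 3, 6 members passed rather than 10. All 6 measured macrophage markers were higher in control tumours than in control cells, by a median of 3.63, and their part in these differences was not tested.

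Kcnq1ot1 separated the untreated tumours of the experiments from each other. The 11 controls of the OTX015 experiment measured 3.93 to 4.79 (median 4.37), around background, and the 5 of the guadecitabine experiment 7.77, 7.34, 7.37, 7.45 and 5.68. No value was shared between the ranges, and the log2 difference was 2.76 ± 0.22 (SE; limma adjusted p = 2.24e-08). It is not given as a fold, since the lower group is not above background. Its mean in control tumours, 1.55 above that in cells (adjusted p = 1.26e-05), therefore rests on the guadecitabine experiment: the OTX015 experiment controls averaged 4.36 and control cells 4.19. Of its 6 probe sets, 3 carried the difference between experiments (2.76, 4.77 and 3.39), and the others gave 0.05, 0.05 and -0.38. Malat1 and Neat1 were higher in the same tumours, by 1.78 (limma adjusted p = 6.29e-06) and 2.89 (adjusted p = 4.31e-07).

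In that comparison 8 of 26 members passed (30.8%), against 35.6% of all genes, 3 higher in the guadecitabine experiment (11.0% of all genes) and 5 lower (24.6%). Of the 10 above background 4 passed, against 35.1% of such genes. Kcnq1ot1 is among these 4. Its group means were 7.12 and 6.03 in the guadecitabine experiment and 4.08 to 4.68 elsewhere. Its place among the 10 thus rests mainly on the experiment in which it is called higher. The median over all genes was -0.12. After quantile normalization the split was 3 higher and 3 lower, beside 1692 genes higher and 5241 lower in all. Impact measured 5.60 to 6.54 (median 6.36) in the OTX015 experiment and 7.46, 6.90, 7.18, 7.12 and 6.31 in the other, overlapping through control replicate 5, with a difference of 0.81 ± 0.17 (SE; limma adjusted p = 0.00167). Tssc4, of the Kcnq1ot1 domain, measured 5.97 to 6.85 (median 6.60) against 7.09, 7.19, 7.26, 7.16 and 6.78, a difference of 0.58 ± 0.12 (SE; limma adjusted p = 0.00144), again with only replicate 5 in the lower range.

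The lower members were Peg3 (-0.37), Ascl2 (-0.29), Magel2 (-0.29), Meg3 (-0.27) and Gnas (-0.17), with limma adjusted p from 0.0221 to 0.0382. Meg3 is the only member of these above background. It measured 5.00 to 5.63 (median 5.15) in the OTX015 experiment and 5.09, 4.85, 4.85, 5.10 and 4.90 in the other, with overlapping ranges. Meg3 missed the threshold with the mean of its probe sets (-0.16, limma adjusted p = 0.0587) and with array weights (-0.17, limma adjusted p = 0.083). Without guadecitabine control replicate 2, 3 or 4, the count of members passing was 3, 4 or 5. Macrophage markers were lower in the guadecitabine experiment controls (5 of 6 passed, median -0.98; summed level 8.93 to 9.55 against 9.07 to 10.82), and their part was not tested. The experiment, and whatever was processed with it, cannot be told apart from other differences between these groups of tumours, and the same 11 and 5 control tumours serve in the drug comparisons above.

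Over all 6 groups, the deposited levels of 4 members named above (Plagl1, Sgce, Kcnq1ot1 and Impact) were ordered as follows. Plagl1 averaged 12.07 ± 0.14 (SD, n = 4) in OTX015-treated cells and between 11.30 and 11.42 in the other groups, which do not differ beyond their spread. Sgce averaged 9.21 ± 0.04 (SD, n = 4) in control cells, between 8.15 and 8.37 in the 4 tumour groups, whose ranges overlap, and 7.08 ± 0.13 (SD, n = 4) in treated cells. Kcnq1ot1 averaged 7.12 ± 0.83 (SD, n = 5) in guadecitabine experiment controls, 6.03 ± 1.22 (SD, n = 6) in guadecitabine-treated tumours and between 4.08 and 4.68 elsewhere. Impact was highest in treated cells at 7.53 ± 0.15 (SD, n = 4) and lowest in OTX015-treated tumours at 5.58 ± 0.23 (SD, n = 10), the latter on the deposited scale with its lower array means.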

How the data were processed

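RNA of 40 samples was measured on Affymetrix 3′ arrays, 1 array a sample; per the labels, labelling began with 500 ng total RNA. The submitters' processing notes name RMA and Transcriptome Analysis Console for making the deposited log2 intensities, with versions not given in the sources used here. Nor do they say which arrays shared a run of RMA. Arrays have no read depth, so their number limits the precision.

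Of 45141 probe sets, 28898 name 1 gene, 551 several and 15692 are unnamed in GEO's platform annotation. Each gene took its probe set of its own with the highest mean over 40 arrays. Groups come from the labels. Each comparison was fitted on its own groups with limma 3.58.1 in R 4.3.3 (lmFit, eBayes, defaults), two-sided, adjusted by Benjamini-Hochberg over 17097 genes and called at an adjusted p under 0.05. The 2 control contrasts were fitted with control cells and both control tumour groups together. Quantile normalization covered all probe sets of the fitted arrays, where stated. The fits were tested on simulated data. Folds are 2 to the power of the log2 difference. Summed marker levels are log2 of the summed linear intensities. Python 3.11.15 with pandas 2.3.3 and matplotlib 3.10.9 prepared tables and figures.

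The members and lists were chosen with earlier results of these data known. Any member could be named, with values in each sample for called members or, where none was called, for the 4 with the smallest p. From the second imprinted, imprint maintenance and growth factor lists up to 4 genes each were named per comparison by smallest adjusted p. Malat1, Neat1, Col3a1, the Sgce neighbours and other probe sets were named after their values were seen.

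Same-numbered samples were checked for pairing through the correlation of their deviations from the group means, which was over 0.1 in 0 of 5, 5 of 10 and 2 of 4 pairs for guadecitabine, OTX015 in tumours and OTX015 in cells, so the numbers were not taken as pairs. Alternatives were other scalings, the mean of a gene's probe sets, genes above background, array weights, all groups in 1 fit, a robust fit with a variance trend, a replicate block, and omission of arrays.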

Additional observations from a re-analysis of the deposited data

Results flagged for a closer look

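Single arrays that stood far from the rest of their group (by Dixon's ratio) were found in 13 of 130 tests of a member in a group of 4 to 10, where chance alone gives about 1 in 20. In cultures these were Plagl1 in control replicate 3 (10.88, others 11.40 to 11.50), Grb10 in control replicate 2 (3.76) and treated replicate 4 (3.89), Slc22a18 in treated replicate 4 (5.55, others 5.37 to 5.39) and Snrpn in treated replicate 1 (8.45, others 8.05 to 8.10). In the guadecitabine experiment they were Kcnq1ot1 in control replicate 5 (5.68, others 7.34 to 7.77), Snrpn in the same array (8.40, others 8.16 to 8.20), Dlk1 in control replicate 3 (3.95), Sgce in treated replicate 4 (9.49, others 7.90 to 8.47) and Nap1l5 in treated replicate 2 (3.26). In OTX015-treated tumours they were Igf2 (4.60) and Dlk1 (4.25) in replicate 4, which is also an array of low overall spread, and Ndn in replicate 9 (2.81). Of these 13, the values of Grb10, Dlk1, Nap1l5 and Ndn lie below background.

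The effect of OTX015 differed between tumours and cells in limma's test of the difference (adjusted p under 0.05) for Sgce (2.30), Phlda2 (0.75), Rasgrf1 (0.39), Impact (-0.80), Plagl1 (-0.72), Kcnq1ot1 (-0.50) and Cd81 (-0.42), tumours minus cells. For Impact the effect had opposite signs, 0.37 in cells and -0.37 in tumours.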

How the results depend on the processing

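No member named as called changed its direction under any setting tried. For guadecitabine 0 of 26 members passed under each of the settings and with each array left out, while over all genes 0 to 131 passed. For OTX015 in tumours 3 members passed; 19 did on values as deposited, 1 with median centring and 1 of the 10 above background, and 3 to 4 with an array left out; Impact missed the threshold with median centring and with all 6 groups in 1 fit. For OTX015 in cells 8 passed, 4 with all 6 groups in 1 fit, and 8 with each array left out. In that single fit Kcnq1ot1 (adjusted p = 0.439), Impact (0.391), Snrpn (0.131) and Slc22a18 (0.0637) missed the threshold. For control tumours against cells 10 passed and 6 of the 10 above background, or 6 to 10 with an array left out; the mean of its probe sets took Sgce to -0.16 (adjusted p = 0.0686). Between the controls of both experiments 8 passed and 4 of the 10 above background, or 3 to 9 with an array left out. For the effect of OTX015 minus that of guadecitabine 0 passed. On deposited values 9 did, all lower, beside 76 genes higher and 5160 lower in all. With array weights 1 passed (Rasgrf1, limma adjusted p = 0.0298), and with an array left out 0 to 1. For the effect in tumours minus cells 7 passed, and 7 to 8 with an array left out; Rasgrf1 missed the threshold on deposited values (0.13, adjusted p = 0.415) and, averaged over its probe sets, at 0.07 (adjusted p = 0.494), and Kcnq1ot1 with all groups in 1 fit (adjusted p = 0.455). Fitting only genes above background leaves 10 members to test, with Kcnq1ot1 among them mainly through the arrays of the guadecitabine experiment. The causes of the other changes were not tested. With the replicate number as a block the counts were 0 for guadecitabine, 2 for OTX015 in tumours, where Nap1l5 missed the threshold (-0.17, adjusted p = 0.0761), and 8 in cells. The limits are the low signal of 16 of the 26 members, below background on average, and the spread of the guadecitabine tumours.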
